A study of Mus musculus with 19 samples.

Results

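The retinoic acid receptor genes Rara, Rarb and Rarg, the retinoid X receptor genes Rxra, Rxrb and Rxrg, and the genes of the cellular retinoic acid binding proteins Crabp1 and Crabp2 were followed through ATAC-seq summits of mouse forebrain progenitors. ATAC-seq marks open DNA by the insertion of adapters by a transposase, and a summit is the position of highest signal within a called peak. These 8 genes of 21887 protein-coding genes were chosen by name, and a summit was counted for a gene when the nearest end of a protein-coding gene within 100 kb was one of its ends. Summits inside the gene body and within 1 kb of a listed start were counted as well. Of 1547369 deposited summits in 19 libraries, 995 fell to the 8 genes. The lists held between 29112 and 122591 summits, so the 29112 best-scoring summits of each library, called matched summits here, were compared first; 298 of these 553128 fell to the 8 genes.

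All libraries came from forebrain cells of embryonic day 14 that were separated magnetically by Prom1, a surface protein of neural progenitors. Foxc1 wild-type libraries were 4 controls without the diet and 5 labelled with a retinoic acid diet, called RA-diet controls. The other genotype, the hith allele of Foxc1 over a LacZ allele, gave 4 mutants without the diet and 6 RA-diet mutants. Foxc1 is a transcription factor needed for the meninges, and hith is a hypomorphic allele in every cell, so no single cell type is targeted. Dose, timing, litter and the number of embryos behind a library are not given in the sources used here, and p-values measure the spread between these libraries, which may in part be technical. Mutant 1 carries a wild-type genotype label against its title; it was kept with the mutants, and several differences of the mutants are also given without it.

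Retinoic acid is made from vitamin A and, in the embryonic forebrain, comes largely from the meninges. Inside the target cell it is held by the binding proteins, of which Crabp2 hands it to receptors in the nucleus, and it binds retinoic acid receptors, which sit on DNA as pairs with retinoid X receptors. The pair recognises hexamers close to AGGTCA that follow each other as direct repeats. Without the ligand the pair holds corepressors, and with it coactivators. Rarb is itself a classic target gene, through a direct repeat in the promoter of one of its transcripts.

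The promoter sequences show where these data touch that wiring. RefSeq promoters of GRCm38.p6 were at hand for 7 of the 8 genes, with 14 starts; Crabp2 had none in the table. The 250 bases before the start are shown for the starts of Rarb, Rara and Rxrg that had a summit in 18 libraries, and for a start of Rarg that had one in all 19 deposited lists but only 12 matched ones. Capitals mark 4 hexamers on either strand, so that a hexamer of the other strand appears as its reverse complement. The 4 are AGGTCA (the consensus), GGGTCA (present in the windows of Rarb and Rxrg), AGTTCA (present in that of Rarb) as well as GGTTCA (likewise).
Rarb, chr14:16575477-16575726, minus strand: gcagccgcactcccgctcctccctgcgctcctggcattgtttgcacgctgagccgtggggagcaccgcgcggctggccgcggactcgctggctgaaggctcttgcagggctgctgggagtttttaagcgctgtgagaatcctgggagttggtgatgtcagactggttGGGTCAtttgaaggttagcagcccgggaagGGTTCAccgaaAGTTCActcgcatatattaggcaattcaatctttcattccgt
Rara, chr11:98937446-98937695, plus strand: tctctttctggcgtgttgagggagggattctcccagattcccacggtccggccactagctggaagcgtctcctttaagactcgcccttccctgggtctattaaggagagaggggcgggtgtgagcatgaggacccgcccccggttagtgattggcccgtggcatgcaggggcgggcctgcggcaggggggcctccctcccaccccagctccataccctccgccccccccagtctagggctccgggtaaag
Rxrg, chr1:167598112-167598361, plus strand: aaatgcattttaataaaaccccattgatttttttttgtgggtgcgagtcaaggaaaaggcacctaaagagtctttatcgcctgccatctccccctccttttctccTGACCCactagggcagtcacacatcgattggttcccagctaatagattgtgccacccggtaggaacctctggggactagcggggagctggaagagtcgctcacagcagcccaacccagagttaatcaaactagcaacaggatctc
Rarg, chr15:102246501-102246750, minus strand: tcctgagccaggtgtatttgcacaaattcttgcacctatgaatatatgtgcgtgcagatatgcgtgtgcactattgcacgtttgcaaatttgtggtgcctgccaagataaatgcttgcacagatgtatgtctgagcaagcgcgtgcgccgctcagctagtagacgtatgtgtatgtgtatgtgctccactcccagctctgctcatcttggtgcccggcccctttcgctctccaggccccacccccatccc

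The Rarb window held 3 hexamers, all on the gene's strand. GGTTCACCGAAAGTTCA, a direct repeat with 5 bases between the hexamers, lay at bases -53 to -37 from the start, and GGGTCA lay at -83 to -78. The same search for such repeats, with any of the 4 hexamers in either position and on both strands, found one in 32 of 32851 promoter windows of 300 bases (0.0974%, 31 genes). Among the 14 windows of the 8 genes it was found in the Rarb window alone. A single hexamer was common, with at least 1 in 43.7% of all windows. The Rxrg window had GGGTCA on the opposite strand at -145 to -140, and the Rara and Rarg windows shown had no hexamer. GGGCGG, the core of a site for Sp factors, occurred 4 times in the 300-base Rara window and in 35.7% of all windows.

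In 18 libraries a summit lay at the Rarb start, with its best-scoring position between -193 and 94 bases from it (median -144). In 16 of these libraries that position lay within the 250 bases shown. In 9 libraries it lay within 10 bases of -150, upstream of the direct repeat. The position did not separate the groups: it was -148, 94, -144 and -148 in the controls, -148, -112, -193 and -159 in the mutants, and -12, -148, -149, -144 and -94 in the RA-diet controls. In the RA-diet mutants it ran from -147 to 9, and RA-diet mutant 4, whose list was the shortest, had no summit within 1 kb. No position was inside the repeat itself.

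**Figure D1:**
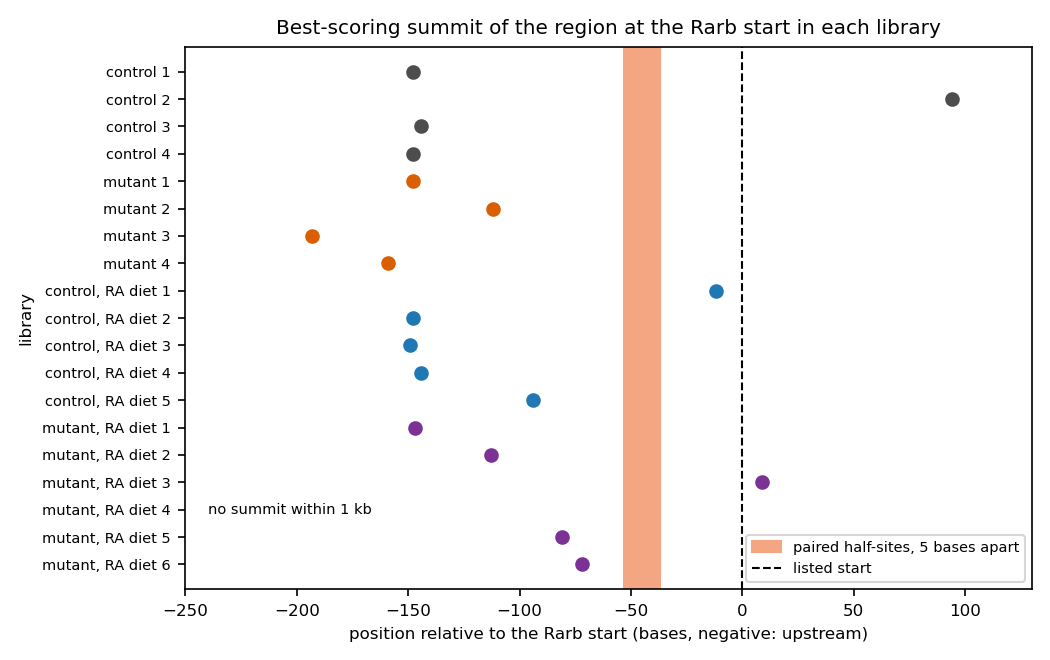
Position of the best-scoring summit of the region at the Rarb start in each library, in bases from the start (x axis, negative values upstream), with libraries on the y axis coloured by group. The band marks the direct repeat at -53 to -37; 16 points lie upstream of the start and 2 downstream, with no point inside the band.

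Starts of the 8 genes differed in how many libraries had a matched summit near them. Rara at chr11:98937696 and at chr11:98937718, Rarb at chr14:16575476 and Rxrg at chr1:167598362 had a matched summit in 18 libraries each, all but RA-diet mutant 4. The Rxrb start at chr17:34031812, which lies 122 bases from the neighbouring gene Slc39a7, had one in 17 and a deposited one in all 19, and a summit there cannot be assigned to either gene. The Rxra start at chr2:27677201 and the Rarg start at chr15:102257522 had a matched summit in 1 library each, and a deposited one in 17 and 18. The Crabp1 start at chr9:54764748 had no matched summit and a deposited one in 15 libraries, at list positions from 32297 to 83614. A second listed start of Rxrg had no matched summit and a deposited one in 10 libraries. The second listed start of Rxrb had a matched summit within 1 kb in 17 libraries and a deposited one in 19, but none within 500 bases; the start of Rarg shown above had a matched one in 12. Another 2 starts of Rara and 1 of Rxra had no summit in any library. For comparison, 31.0% of 32851 listed starts had a matched summit in at least 18 libraries and 54.9% had none.

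**Figure D2:**
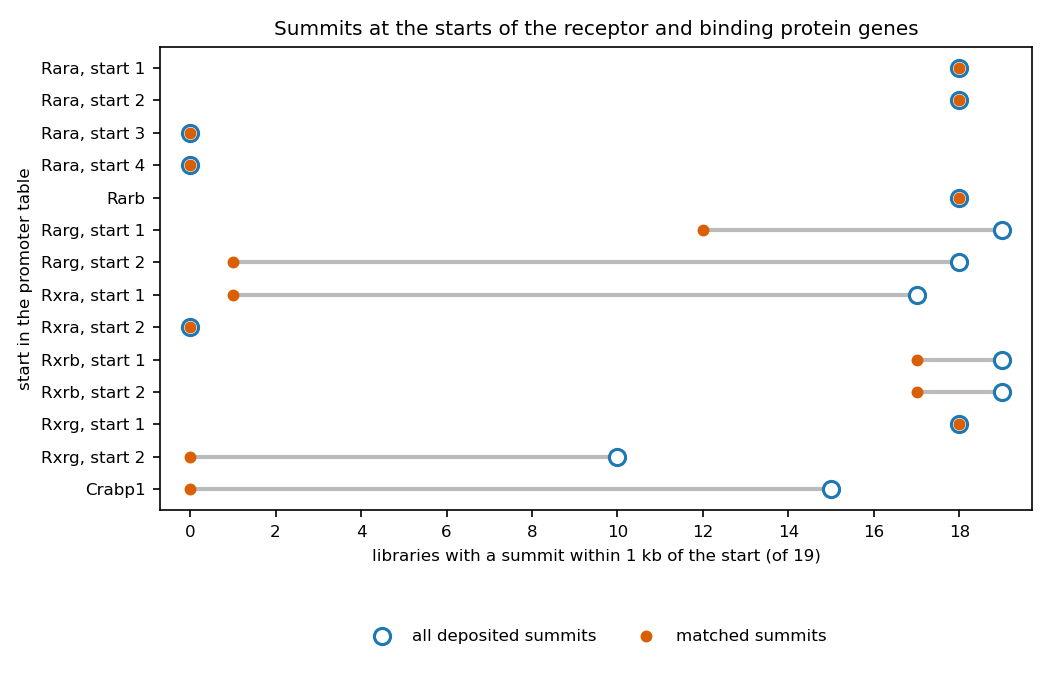
Number of libraries, of 19, with a summit within 1 kb of each listed start (x axis), for matched summits (filled) and all deposited summits (open), with starts on the y axis. Rara, Rarb and Rxrg each have a start at 18 in both sets, while starts of Rarg, Rxra and Crabp1 move from 1 or 0 matched libraries to between 15 and 18.

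The cells carried open chromatin at neural progenitor genes. Of 8 progenitor markers (such as Sox2, Pax6 and Nes), 5 had a matched summit at a start in all 19 libraries, as had 2 of 6 markers of newborn neurons and 1 of the 3 endothelial markers with a listed start. The mural, meningeal and microglial lists had 3 markers each with a listed start, and none of these had one in all libraries. Of them, 3 mural, 2 microglial and 0 meningeal markers had no matched summit there in any library. The 4 erythroid markers had one in none. Summed matched summits of the meningeal fibroblast list ran from 8 to 9 in controls, 9 to 12 in mutants, 9 to 12 in RA-diet controls and 11 to 13 in RA-diet mutants. Those of neural progenitors ran from 32 to 36, 32 to 39, 33 to 39 and 36 to 40 in the same order, and those of newborn neurons from 16 to 22, 17 to 24, 18 to 25 and 21 to 26. Mural markers had 4 to 5, 2 to 4, 3 to 4 and 1 to 5. The part of these lists in the results below was not tested. Fewer cells of a type and less signal per cell cannot be told apart in bulk libraries.

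Rara, the receptor gene with the broadest expression, lies at chr11:98927800-98974942. Its matched summits numbered 3, 4, 3 and 3 in the controls, 4, 3, 3 and 3 in the mutants, 3, 4, 3, 3 and 3 in the RA-diet controls, and 2 to 4 (median 3) in the RA-diet mutants. All groups overlapped. The gene body held 4 to 8 matched summits per library. The number by body is larger because the small gene Gm46294 lies inside Rara and takes the summits at the Rara start under the nearest-end rule. Rara had 8 regions (matched summits chained at 200 bases and seen in at least 2 libraries). The regions at chr11:98963708-98963820 and chr11:98969757-98969876, both within the gene, were present in all 19 libraries.

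Rarb, the retinoic-acid-inducible receptor gene, spans 651 kb at chr14:16430839-17082331, and its start described above lies 145 kb from the nearer end. The nearest-end rule therefore leaves out the start region, which was counted by body and start. By nearest end it had 1, 2, 3 and 3 matched summits in the controls, 3, 3, 3 and 2 in the mutants, 3 in each RA-diet control and 2 to 3 (median 3) in the RA-diet mutants. Control 1 had the lowest count, followed by a tie of control 2, mutant 4 and RA-diet mutant 4 at 2. Its 5 regions included chr14:16483956-16484198, 91.4 kb downstream of the start and within the gene, which was present in all 19 libraries. The start region chr14:16575382-16575669 was present in 18, at list positions 8257 to 28975 (median 18665), so that in some libraries it lay just inside the 29112 summits kept.

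Rarg, a receptor gene known for its part in skeletal and epithelial development, lies at chr15:102234938-102257522. It had 2, 2, 2 and 1 matched summits in the controls, 2, 1, 0 and 1 in the mutants, 2, 2, 2, 1 and 2 in the RA-diet controls and 1 to 3 (median 1.5) in the RA-diet mutants. None of its 3 regions was in all libraries. The region most often seen, chr15:102239348-102239418, was present in 4 of 4 controls, 2 of 4 mutants, 5 of 5 RA-diet controls and 5 of 6 RA-diet mutants. A weaker one beside the shown start, chr15:102246547-102246578, was present in 0, 1, 3 and 4 libraries of these groups. Another beside the same start, chr15:102246977-102246994, went the other way, with 2, 0, 1 and 0 libraries. Within 1 kb of that start, 2, 2, 4 and 4 libraries had a matched summit.

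Rxra, the main retinoid X receptor gene of many embryonic tissues, lies at chr2:27676445-27763319, with its nearest neighbours 123 kb and 140 kb away. It had 5, 6, 3 and 3 matched summits in the controls, 5, 3, 1 and 1 in the mutants, 5, 6, 4, 3 and 4 in the RA-diet controls and 1 to 7 (median 3.5) in the RA-diet mutants. Mutants 3 and 4 were the low ones, and the groups overlapped. None of its 8 regions was in all libraries; chr2:27758513-27758727 within the gene and chr2:27813509-27813642, which lies 50.3 kb beyond the gene's end, were in 17 each. With all deposited summits Rxra reached 2 to 27 per library and 349 in all, against 70 matched ones, and had 30 regions.

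Rxrb, at chr17:34031812-34038403, had no summit inside the gene in any library, matched or deposited. By nearest end it had 0 or 1 matched summit. The region at its start, chr17:34031630-34031810, was present in 17 libraries. Rxrg, the retinoid X receptor gene with the most restricted expression, lies at chr1:167598362-167639623. It had 2, 3, 2 and 2 matched summits in the controls, 2, 3, 3 and 3 in the mutants, 4, 4, 3, 2 and 2 in the RA-diet controls and 2 to 4 (median 3) in the RA-diet mutants. Its region chr1:167660833-167660961, which lies 21.3 kb beyond the gene's end on the side of Lmx1a, was present in all 19 libraries, at list positions 3814 to 15720.

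Crabp1, a binding protein gene at chr9:54764748-54773110, had 1 matched summit in 0 of 4 controls, 1 of 4 mutants, 3 of 5 RA-diet controls and 5 of 6 RA-diet mutants. In 8 of these 9 libraries it was the region chr9:54787812-54788057, which lies 14.8 kb beyond the gene. With all deposited summits, a region at that place was seen in 4 controls, 3 mutants and 5 libraries of each RA-diet group, so what differed was whether its summit came within the matched part of the list. Crabp2, at chr3:87948693-87953372, had exactly 1 matched summit in every library. It lay at chr3:87960918-87961008, 7.59 kb from Crabp2 and 10.1 kb from Nes, a progenitor gene, and ranked between 146 and 1064 of the list (median 415). The gene body of Crabp2 held no matched summit, and 10 deposited ones in 8 libraries.

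**Figure D3:**
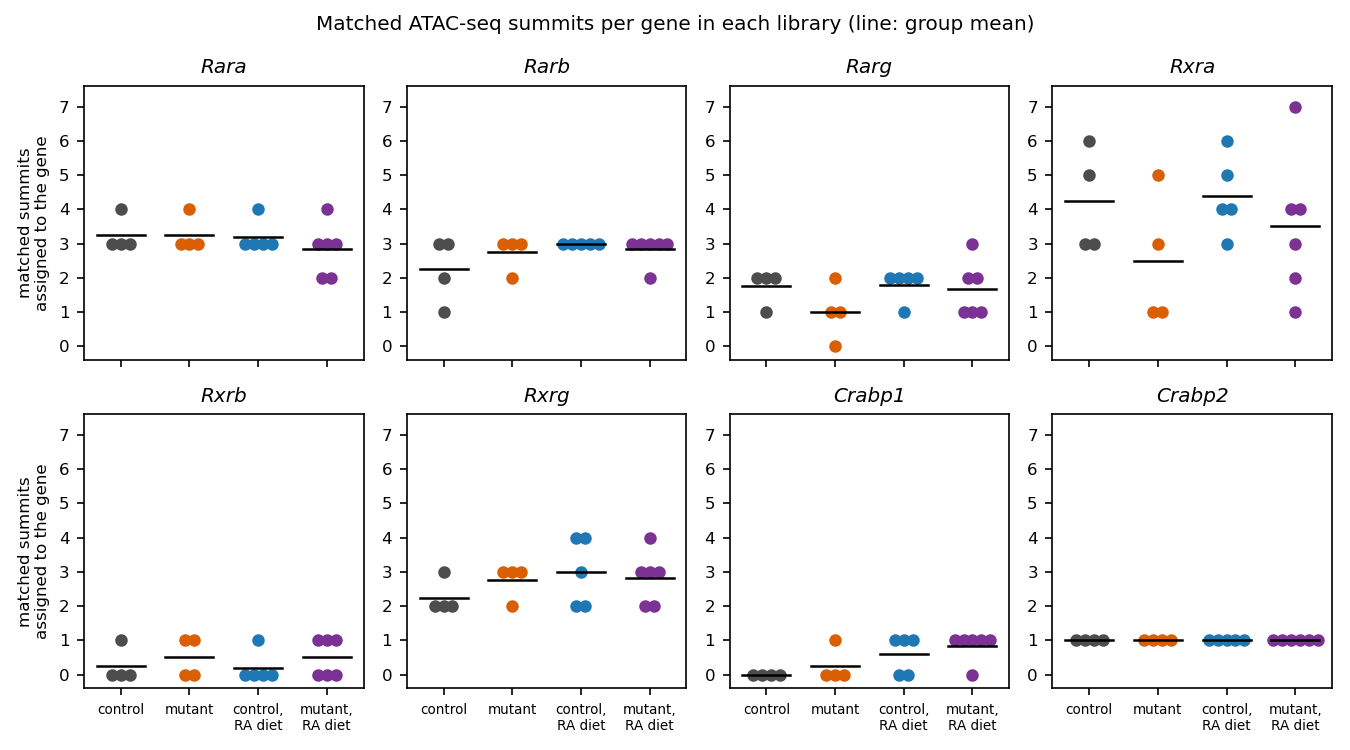
Matched summits assigned to each of the 8 genes (y axis) in each library (points) by group (x axis), with the group mean as a line. Rarb is at 3 in all 5 RA-diet controls against 1 to 3 in the controls, Crabp2 is at 1 throughout, and the groups overlap or are tied for every gene.

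Summits per gene were tested with limma on log2 of summits plus 0.5 over the 10826 genes whose mean reached 1 summit. Of the 8 genes 6 entered, while Rxrb and Crabp1 were below that mean. Crabp2, 1 of the 6, had 1 matched summit in every library, so its test could not show a difference. None was called at an adjusted p under 0.05 in mutants against controls, where 0% of all genes were called, or in RA-diet controls against controls, also 0%. None was called in RA-diet mutants against mutants (0.0185% of all genes), RA-diet mutants against RA-diet controls (0.0277%), RA-diet mutants against controls (0.0277%) or the interaction of genotype and diet (0.00924%). At an unadjusted p under 0.05, 1 of the 6 passed in RA-diet controls against controls (4.26% of all genes). None passed in mutants against controls (5.7%), RA-diet mutants against mutants (6.82%), RA-diet mutants against RA-diet controls (3.05%), RA-diet mutants against controls (6.67%) or the interaction (3.49%). The 1 that passed was Rarb, with a mean of 3 ± 0 summits in the RA-diet controls (SD, n = 5) and 2.25 ± 0.957 in the controls (SD, n = 4). The log2 difference was 0.43 (SE 0.20, limma adjusted p = 1). With all deposited summits, where Rarb had means of 8.2 and 8.25, the difference was -0.033. Over the 6 genes the median log2 difference was 0.00 in mutants against controls and 0.05 in RA-diet controls against controls, against a median of 0 over all genes in both.

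Presence of regions was compared by two-sided Fisher's exact test. The 8 genes had 31 regions, of which 5 (16.1%) were present in all 19 libraries, against 29.0% of all 44878 regions. No region of the 8 genes was called in any of the 5 group contrasts, as for all regions (0% called). The smallest exact p these group sizes allow ran from 0.00216 to 0.0286, before adjustment over all 44878 regions. A call was therefore hardly possible, and the absence of calls does not show that presence was alike. At an unadjusted exact p under 0.05, 1 of 31 passed in RA-diet controls against controls (2.62% of all regions). None passed in mutants against controls (0.152%), RA-diet mutants against mutants (1.21%), RA-diet mutants against RA-diet controls (0.305%) or RA-diet mutants against controls (2.75%). The region that passed was chr14:16847500-16847539 within Rarb, 272 kb upstream of the start described above. It was present in 4 of 5 RA-diet controls, 3 of 6 RA-diet mutants, and 0 of 4 controls and 0 of 4 mutants (exact p = 0.0476 for controls, adjusted p = 1). The Rxrg region chr1:167583961-167584138, 14.3 kb upstream of the gene, was likewise seen in 5 of 11 libraries on the diet and 0 of 8 off it. It passed no test, was chosen after its values were seen, and is one of 325 regions (0.724% of all) seen in at least 5 libraries on the diet and none off it. With all deposited summits both were found off the diet too, the Rxrg region in all 19 libraries.

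**Figure D4:**
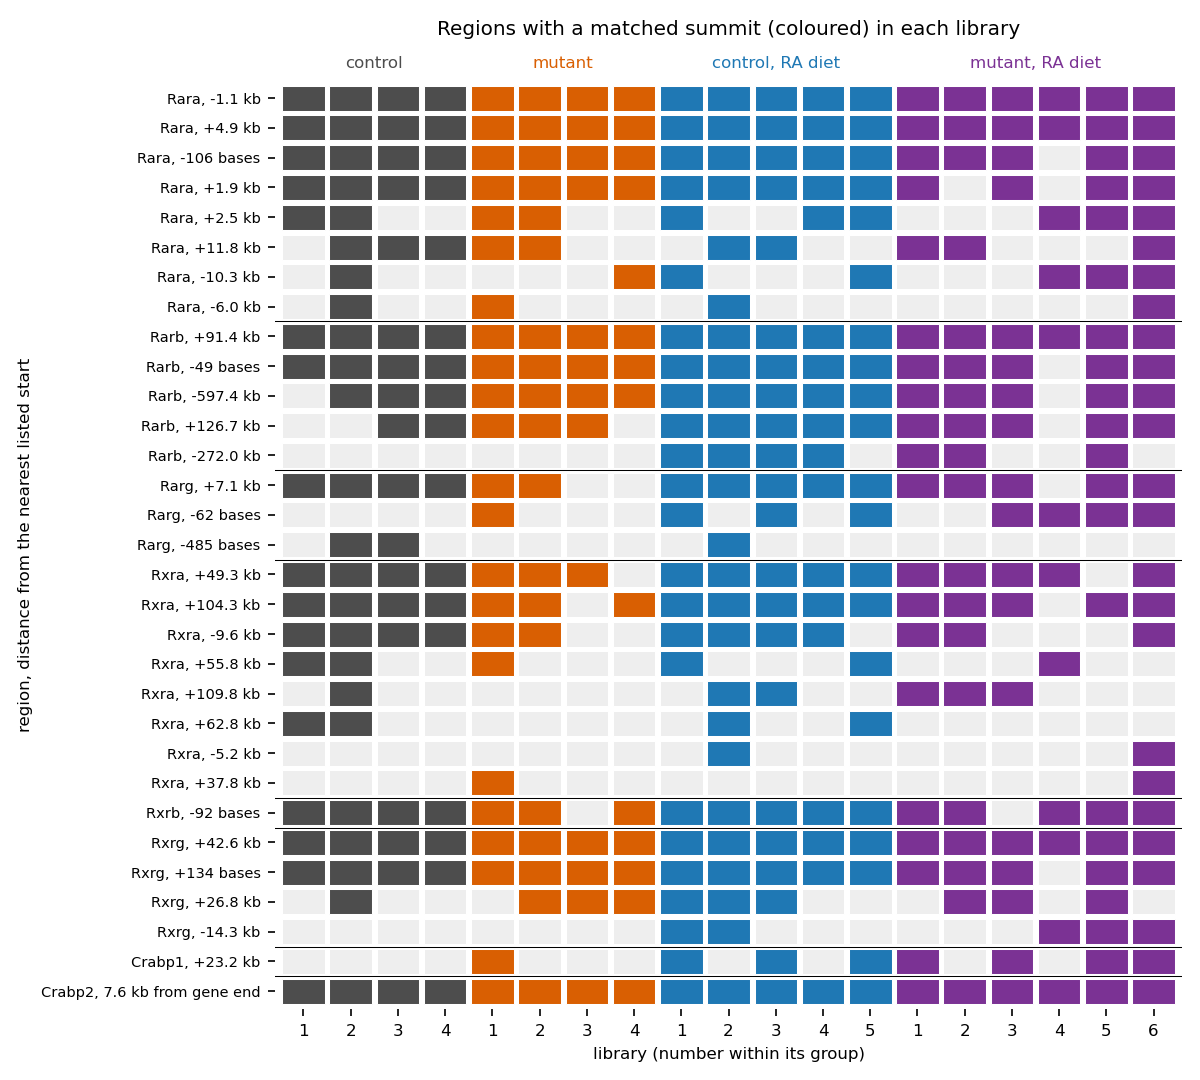
Presence of a matched summit (coloured) in each of 19 libraries (columns, by group) for the 31 regions of the 8 genes (rows, named by gene and distance from the nearest listed start, or from the gene end for Crabp2). The 5 rows filled throughout belong to Rara, Rarb, Rxrg and Crabp2; the Rarb row at -272 kb is filled in 7 libraries, all on the diet.

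With all deposited summits the 8 genes had 127 regions, and 10 of them (7.87%) were in all 19 libraries, against 12.4% of 150489. None was called. An unadjusted exact p under 0.05 was found for 6 of 127 in RA-diet mutants against controls (5.08% of all regions), 5 in RA-diet mutants against mutants (2.7%), 2 in RA-diet controls against controls (2.73%) and 0 in mutants against controls (0.0857%) and in RA-diet mutants against RA-diet controls (0.409%). In all 13 of these comparisons the RA-diet group had fewer libraries with a summit. So had 98.4%, 98.9% and 93.3% of all regions with such a p in the first 3 of these contrasts. At Crabp2, chr3:87947609-87948104 and chr3:87949617-87949882, 0.837 kb outside and 1.06 kb inside the gene, were present in 4 of 4 controls and 0 of 6 RA-diet mutants (exact p = 0.00476, the smallest these groups allow, adjusted p = 0.561). Such a complete split held for 0.849% of all regions. The first was also in 3 of 4 mutants and 2 of 5 RA-diet controls, and the second in 1 and 2. Their list positions were 56653 to 116683 and 73294 to 111120, whereas the median list held 97018 summits in controls and 67034.5 in RA-diet mutants; the part of list length was not tested.

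Strength was compared by the rank of each region's best deposited score over regions shared by all 19 libraries, 10 of 18701 belonging to the 8 genes, expressed as normal scores in which a higher value is a stronger rank. None was called in any contrast, as for all regions (0%). At an unadjusted limma p under 0.05, 2 of 10 passed in mutants against controls (11.2% of all regions), 1 in RA-diet controls against controls (6.96%), 2 in RA-diet mutants against mutants (15.6%), 1 in RA-diet mutants against RA-diet controls (2.71%), 0 in RA-diet mutants against controls (14.5%) and 1 in the interaction (4.09%). These came from regions of Rara, Rxrg and Crabp2. In RA-diet controls against controls all 10 differences were below 0, as were 52.6% of all regions, with a median of -0.12 against -0.02 over all regions. In the larger set described below, 14 of 21 were below 0 in that contrast (52.4% of all regions).

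At Rara chr11:98969757-98969876, 4.94 kb downstream of the last listed start, the rank percent (0 for the highest score) was 41.1, 51.7, 35.5 and 35.8 in the controls and 44.4, 35.7, 86.8 and 83.7 in the mutants. It was 74.7, 30.5, 30.4, 47.9 and 45.6 in the RA-diet controls and 24.4 to 58.5 (median 39.0) in the RA-diet mutants. Mutants 3 and 4, RA-diet control 1 and RA-diet mutant 2 ranked weaker than every control, and the 4 groups overlapped. Mutants 3 and 4 also had the lowest scores at the last matched summit among the mutants, 18.1 and 5.42 against 39.9 and 50.9. The part of this was not tested. The normal score difference was -0.63 (SE 0.29, limma adjusted p = 0.430) in mutants against controls, and 0.67 (SE 0.26, adjusted p = 0.226) in RA-diet mutants against mutants. The interaction was 0.80 (SE 0.38, adjusted p = 0.961). Without mutant 1 these were -0.81 (adjusted p = 0.145), 0.85 (adjusted p = 0.0977) and 0.98 (adjusted p = 0.510). Without mutant 3 they were -0.39 (adjusted p = 0.975), 0.43 (adjusted p = 0.487) and 0.56 (adjusted p = 0.999), and without mutant 4 -0.43 (adjusted p = 0.910), 0.48 (adjusted p = 0.511) and 0.60 (adjusted p = 1.00).

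At the Crabp2 region near Nes the rank percent was 1.74, 0.754, 2.72 and 2.70 in the controls, 2.26, 3.62, 3.68 and 5.56 in the mutants, 2.07, 1.57, 2.11, 2.30 and 4.00 in the RA-diet controls and 1.14 to 3.38 (median 1.93) in the RA-diet mutants. It was among the strongest regions in every library. The difference was -0.30 (SE 0.15, limma adjusted p = 0.444) in mutants against controls and 0.29 (SE 0.13, adjusted p = 0.302) in RA-diet mutants against mutants, and without mutant 1 -0.37 (adjusted p = 0.195) and 0.35 (adjusted p = 0.189). At Rxrg chr1:167660833-167660961 the rank percent was 36.2, 40.6, 19.2 and 26.3 in the controls, 30.1, 22.3, 35.6 and 31.7 in the mutants, 67.3, 37.8, 33.9, 45.6 and 61.7 in the RA-diet controls and 26.7 to 45.4 (median 33.3) in the RA-diet mutants. RA-diet controls 1 and 5 were the weak ones. The difference was -0.51 (SE 0.19, adjusted p = 0.627) for RA-diet controls against controls and 0.39 (SE 0.17, adjusted p = 1.00) for RA-diet mutants against RA-diet controls.

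The Rarb start is missing from that set because of the shortest list. The fit was therefore repeated without RA-diet mutant 4, over 24917 regions shared by the other 18 libraries, an alternative added after the data were examined. It held 21 regions of the 8 genes, and again none was called (0% of all regions). At an unadjusted p under 0.05, 4 of 21 passed in mutants against controls (11% of all regions), 2 in RA-diet controls against controls (8.03%), 3 in RA-diet mutants against mutants (13.2%), 1 in RA-diet mutants against RA-diet controls (2.5%), 3 in RA-diet mutants against controls (12.7%) and 1 in the interaction (3.66%). Of these 14 differences 8 belonged to Rarb, which held 5 of the 21 regions; several are contrasts of 1 region that share the controls.

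At the Rarb start region the rank percent was 84.9, 75.7, 77.0 and 76.9 in the controls and 56.5, 76.3, 45.1 and 44.4 in the mutants. It was 30.6, 69.1, 69.4, 63.9 and 54.0 in the RA-diet controls and 76.1, 64.8, 53.2, 55.4 and 57.0 in the RA-diet mutants. The controls without the diet had the weakest median, and mutant 2 and RA-diet mutant 1 fell among their values. The normal score difference was 0.65 (SE 0.24, limma adjusted p = 0.424) in mutants against controls, 0.61 (SE 0.23, adjusted p = 0.506) in RA-diet controls against controls and 0.50 (SE 0.23, adjusted p = 0.365) in RA-diet mutants against controls. These contrasts share the 4 controls. The interaction was -0.75 (SE 0.33, adjusted p = 0.965; 0.567 without mutant 1), and RA-diet mutants and mutants differed by -0.14 (SE 0.23, adjusted p = 0.826). Leaving out mutant 1 gave 0.65 for mutants against controls (adjusted p = 0.195). With the number of deposited summits as a covariate the 3 differences from controls were 0.61, 0.49 and 0.32, with adjusted p-values of 0.426, 0.598 and 0.541.

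Of the other 4 Rarb regions in this set, the 3 with an unadjusted p under 0.05 in a contrast follow, none past the adjusted threshold. At chr14:17172798-17173014, 90.6 kb outside Rarb on its upstream side, the rank percent was 93.3, 82.6, 72.5 and 83.0 in the controls, 58.0, 75.9, 43.6 and 59.5 in the mutants, 78.9, 71.1, 76.6, 61.1 and 61.6 in the RA-diet controls and 70.3, 72.3, 59.0, 55.3 and 48.6 in the RA-diet mutants. The difference from controls was 0.75 (SE 0.24, limma adjusted p = 0.424) in mutants and 0.71 (SE 0.23, adjusted p = 0.213) in RA-diet mutants. Without mutant 1 the mutants differed by 0.74 (adjusted p = 0.152). At chr14:16448725-16448878, within Rarb and 127 kb downstream of the start, the values were 94.1, 93.4, 57.5 and 71.7 in the controls. They were 62.6, 59.5, 55.0 and 90.8 in the mutants, 70.3 to 79.3 in the RA-diet controls and 40.9 to 69.3 in the 5 RA-diet mutants. RA-diet mutants differed from controls by 0.84 (SE 0.28, limma adjusted p = 0.222). At chr14:16733580-16733961, 158 kb upstream of the start and near the bottom of the shared set, RA-diet mutants lay above mutants by 0.93 (SE 0.38, adjusted p = 0.307), and by 0.46 (adjusted p = 0.677) without mutant 4 and 0.98 (adjusted p = 0.242) without mutant 1. There the mutants lay below the controls (-0.80, SE 0.40, adjusted p = 0.464), opposite in sign to the Rarb start.

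At the distal Rxra region chr2:27813509-27813642 the rank percent was 69.0, 79.5, 81.6 and 75.7 in the mutants and 56.2, 49.1, 53.5, 52.0 and 52.5 in the RA-diet mutants. It was 62.6, 58.6, 64.3 and 76.7 in the controls and 72.8, 35.9, 43.6, 58.8 and 58.7 in the RA-diet controls. The difference between RA-diet mutants and mutants was 0.66 (SE 0.20, limma adjusted p = 0.197), and without mutant 1 it was 0.74 (adjusted p = 0.109).

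**Figure D5:**
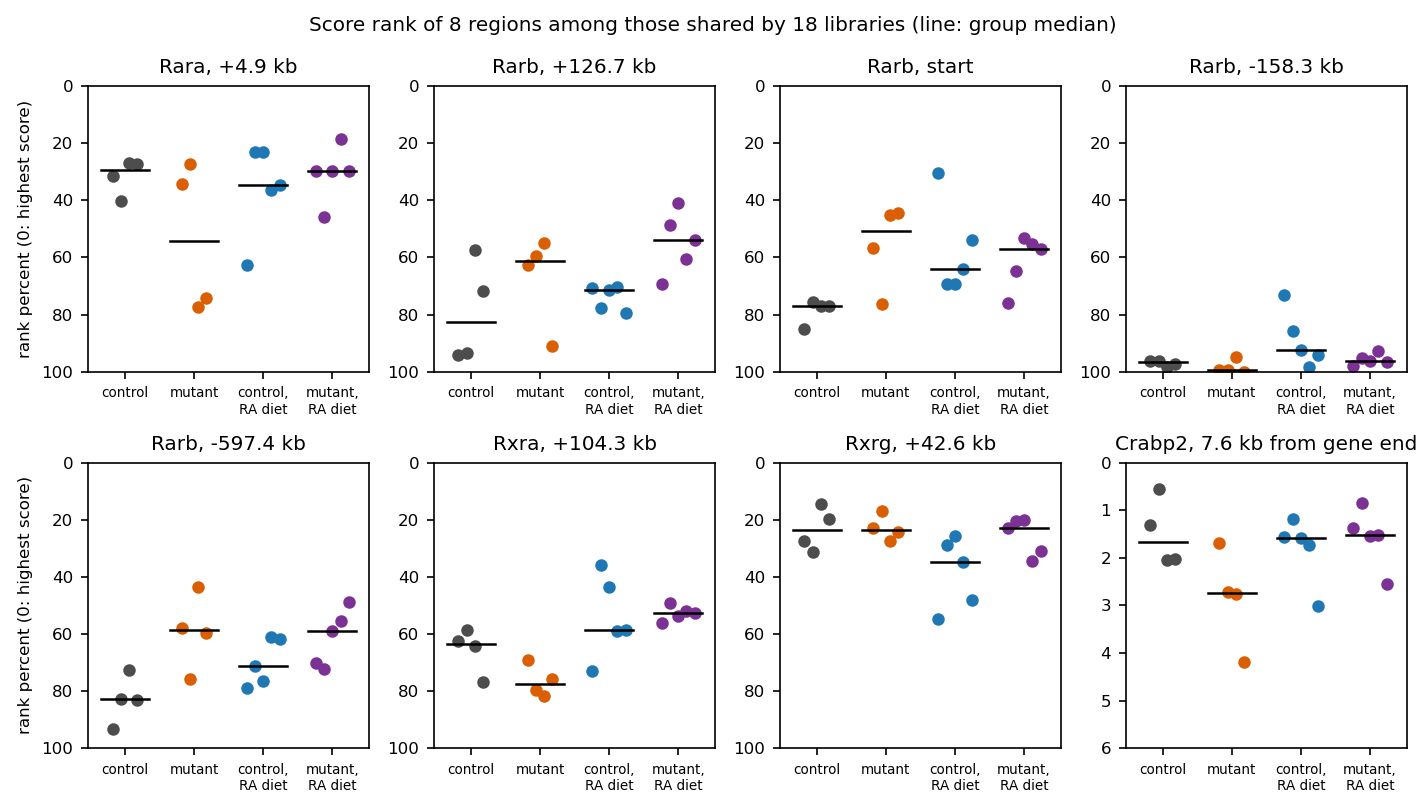
Rank percent of the best deposited score (y axis, 0 for the highest score at the top; the Crabp2 panel runs from 0 to 6) in each of 18 libraries by group (x axis), with the group median as a line, for the 8 regions with an unadjusted limma p under 0.05 in any contrast. At the Rarb start the controls lie between 75.7 and 84.9, and at the Rxra region the RA-diet mutants lie between 49.1 and 56.2.

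Genes around the receptors were counted in the fit of summits per gene. Of 13 genes of retinoid metabolism and transport (synthesis, breakdown, uptake and binding) 7 were tested, of 9 coregulators 8, of 10 other partners of retinoid X receptors 8, and of 10 genes known to respond to retinoic acid 8. None of the 4 lists had a gene called in any contrast. In mutants against controls 3 metabolism genes were higher and 4 lower, with a median log2 difference of -0.12 against 0 over all genes. Of the response genes 6 were higher and 2 lower (median 0.32), where 25.0% of all genes were higher and 31.8% lower. In RA-diet mutants against mutants the counts were 2 higher and 6 lower (median -0.16), against 34.9% and 31.9% of all genes. Stra6, the gene of a retinol uptake receptor, differed from controls by -0.79 in mutants (SE 0.31, limma adjusted p = 0.776). For Stra6 in RA-diet mutants against controls the adjusted p was 0.349. These contrasts share the controls too.

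The genes whose matched summit numbers followed those of a receptor gene most closely over the 19 libraries were sought among genes on other chromosomes or more than 1 Mb away. Pearson's r was 0.87 between Rara and Hdac11, 0.84 between Rarb and Ntm, 0.92 between Rarg and Esr2, 0.86 between Rxra and both Med16 and Spryd7, and 0.77 between Rxrg and Slc39a10. Each is the highest of 7564 to 7580 correlations of small counts, and the libraries share list length, so they are descriptions only. Between the receptor genes themselves r ran from -0.08 to 0.62, the highest between Rarg and Rxra.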

How the data were processed

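Per the labels, ATAC-seq libraries were made with commercial kits from 19 samples in 4 groups taken from the sample titles; the authors deposited 1 list of peak summits per library. Per the submitters' processing notes BWA, MACS2, Signac and DiffBind were used with mm10 and GRCm38; versions, filters and how the tools were applied are not given in the sources used here. Each deposited score was read as a -log10 q value, since the smallest score of each library was near that of a q of 0.05. The lists hold no read counts, which leaves depth unknown and allows no counting interval; list length (29112 to 122591) limits what can be seen. A score depends on the depth of its library, so scores were only ranked within a library.

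Summits were matched in number (29112 per library), assigned to the nearest end of a protein-coding gene of GRCm38.p6 within 100 kb, and chained into regions at 200 bases. A summit at a start can thus fall to a neighbouring gene. Summits per gene (log2 of summits plus 0.5, mean of at least 1) and normal scores of region ranks were fitted with limma 3.58.1 (trend, robust) in R 4.3.3 with 1 coefficient per group; presence was tested with Fisher's exact test in SciPy 1.17.1. P-values were adjusted by Benjamini-Hochberg over all genes or regions. On simulated data for mutants against controls, 79.5% of 200 genes with 4-fold fewer summits were recovered with 9 false calls (10826 genes), and 49.0% of 200 regions shifted by 1 unit with 6 false calls (18701 regions). The changed genes were drawn only from genes with higher summit numbers. Of the tested members only Rxra, with up to 7 matched summits, would have qualified. The others reached at most 4, so the rate for genes does not describe them.

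All 8 genes are named; differences are printed where an unadjusted p was under 0.05, and regions where they were in all libraries, passed that p or were split completely between groups. The regions of Rarg, Rxra, Rxrb, Rxrg and Crabp1 that fall outside this rule were chosen after their values were seen. The genes, gene lists and tests were chosen with earlier results of these data known. Alternatives were fewer (14556 per library) or all summits, other gene assignments, pseudocounts, filters and chaining distances, a covariate for list length, a replicate block, and leaving out each library.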

Additional observations from a re-analysis of the deposited data

Results flagged for a closer look

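Of 72 groups of values of the 8 genes, 14 had a library that stood far from the rest of its group. In 13 of them the value is a small whole number that differed by 1 from a tied rest. With a tied rest a difference of 1 was enough to be flagged. The chance rate of about 1 in 20 groups therefore does not describe these counts. Rara had 4 matched summits in control 2, mutant 1 and RA-diet control 2, against 3 in each other library of those groups. Rarb had 2 in mutant 4 and in RA-diet mutant 4, against 3. Rarg had 1 in control 4 and in RA-diet control 4, against 2. Rxrb had 1 in control 3 and in RA-diet control 4, against 0. Rxrg had 3 in control 2 against 2, and 2 in mutant 1 against 3. Crabp1 had 1 in mutant 1 against 0, and 0 in RA-diet mutant 2 against 1.

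The Rxrg region 14.3 kb upstream of the gene had a rank percent of 76.9 in RA-diet control 1, a stronger rank than in the other RA-diet controls (92.9 to 99.5).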

How the results depend on the processing

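In the test of summits per gene, the test of presence and both fits of score rank, 0 of the 8 genes or of their regions were called under every alternative that was run, leaving out each library in turn included. For presence such a call was hardly possible at these group sizes. The lowest adjusted p over the alternatives was 0.202, 0.561, 0.0632 and 0.0646 in these 4 analyses. The difference of Rarb summits between RA-diet controls and controls (0.43) turned to -0.033 with all deposited summits and to -0.11 without the shortest list at 48323 matched summits per library, an alternative added after the data were examined; the cause was not tested. Leaving out 1 library it ran from 0.16 to 0.57. The other 487 alternative values of named differences kept their direction, and 16 of all 489 moved by more than 1.5 times. Of these, the Crabp2 region near Nes in mutants against controls (-0.30) was at -0.15 with centred log2 scores and at -0.19 without control 2, and the Rara region at chr11:98969757-98969876 depended on mutant 3 as given above. Counts of libraries with a summit at a start moved with the number of summits kept: with 14556 per library, 3 libraries had one at the Rarb start, 6 at the Rxrg start and 13 at the Rara start.

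Titles share replicate numbers across groups. Over 25 pairs of libraries with the same number the correlation of deviations from the group means ran from -0.323 to 0.356 (median 0.0479) and was over 0.1 in 11, against 26 of 109 pairs with different numbers. Pairing was taken only if every such correlation passed 0.1, so the libraries were not treated as paired. Over 25 pairs that rule could hardly be met, and its failure does not show that libraries with the same number are independent. The files of the 4 controls carry other numbers (2 to 5) than their titles, and a block with those was not run. With the replicate block 0 genes and 0 regions were called, as without it.

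The libraries' depth is unknown, so the absence of a summit was not separable from low sensitivity, and 1 short list set the number of summits compared.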
